A study of Mus musculus with 4 samples.

Results

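Crypt stem cell marker genes were followed across 4 arrays of the mouse colonic epithelium. The set comprised 10 of the 18194 genes named on the arrays, namely Lgr5, Ascl2, Smoc2, Cdca7, Prom1, Msi1, Sox9, Tnfrsf19, Hopx and Lrig1. They were listed by name as known markers of crypt stem cells, with earlier results of these data known, so the counts below are descriptions of a chosen list. All 24 probe sets that carry 1 of these symbols alone are described. A probe set is a group of short probes that read the same transcript.

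The arrays formed 2 pairs, all from the colon of male mice. The first pair came from H2B-GFP mice, in which a histone fused to green fluorescent protein is made under a tetracycline-responsive element. After 7 days of doxycycline and 2 days without it, epithelial cells of isolated crypts were sorted by label into non-proliferating cells that retained it (GFPhigh) and proliferating cells in which division had diluted it (GFPlow). The second pair came from mice with a doxycycline-inducible β-catenin gene, and the labels name no sort for it. Crypts were taken from mice given doxycycline in the drinking water at 2.0 mg/ml for 5 days (Dox plus) or from untreated mice of the same genotype (Dox minus). Dox minus therefore lacked the drug as well as the induction, and these cannot be told apart. Both GFP groups had received doxycycline. The driver of the transgenes, the strain and age of the mice, and the number of mice behind each array were not given in the sources used here.

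Stem cells of the crypt base divide continuously and give rise to all the cell types of the epithelium. They depend on Wnt signalling, in which a Wnt ligand stabilises β-catenin and β-catenin then switches on genes together with TCF factors. R-spondins, which bind LGR receptors, strengthen this signal by removing the ubiquitin ligases RNF43 and ZNRF3 from the cell surface. A further population, called reserve stem cells in the mouse intestine, has been described by genes such as Hopx and Lrig1, although these genes are also found in the cells of the crypt base.

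Each group was 1 array. No test between groups could be made, no difference below has a replicate check, and precision is limited by having so few arrays. Values are log2 expression values. A floor of 5 was set because values below it lie in the range where the background model decides them. A probe set was called measured in a pair when the floor was reached on 1 or both of its arrays, and values under the floor were then set to it, so such differences are lower bounds ("at least"). A difference of 1 on the log2 scale is 2-fold. Across pairs the arrays stood apart. Pearson's r over all probe sets was 0.985 within each pair and 0.930 to 0.941 across pairs, and the mean of 3 control probe sets for 18S ribosomal RNA was 13.03 and 13.29 in the GFP pair against 3.25 and 2.56 in the Dox pair. Differences were therefore taken only within a pair.

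The arrays read as epithelium. All 10 epithelial identity genes reached the floor on each array, at a mean of 13.68 to 13.99. The smooth muscle and endothelial lists, of 6 genes each, had 0 genes at or above the floor on each array. Of 8 fibroblast genes 1 or 2 reached it, only Vim and Pdgfrb, while the collagens Col1a1, Col1a2 and Col3a1 lay under it. Of 7 T cell genes 1 reached the floor on each GFP array and 3 on each Dox array. Of 7 myeloid genes 2 did so on GFPhigh and 4 on each of the others. Of 5 B and plasma cell genes 1 did so on GFPhigh and on Dox minus and 0 on the others. Of 8 tuft cell genes 1 was at or above the floor on each GFP array, 3 on Dox minus and 5 on Dox plus. Sox10 was the only glial or neural gene at or above the floor, and only in the Dox pair. Between the crypts, 3 genes of these non-epithelial lists passed 2-fold, all in favour of Dox minus. The mesenchymal filament gene Vim read 8.43 in Dox minus and 6.64 in Dox plus (-1.78), the immunoglobulin joining chain gene Jchain 7.53 and 4.32 (a fall of at least 2.53), and the leukocyte gene Laptm5 7.58 and 6.05 (-1.53). In the GFP pair 1 was past 2-fold, the integrin gene Itgae of intraepithelial T cells, at 5.50 in GFPhigh and 6.53 in GFPlow (1.03). These genes are named after their values were seen, and their part in the stem cell marker differences was not tested.

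Most of the stem cell markers were higher in the dividing cells than in the label-retaining cells, and higher in crypts with induced β-catenin than in untreated crypts. In GFPlow, Lgr5, Ascl2, Smoc2, Cdca7, Hopx and Lrig1 were at least 2-fold higher than in GFPhigh. That is 6 of the 10 members, of which 8 were measured, and 0 were 2-fold lower. Over all 9381 genes measured in that pair 8.81% were at least 2-fold higher and 4.30% at least 2-fold lower. In Dox plus, Lgr5, Ascl2, Smoc2, Cdca7, Msi1 and Hopx were at least 2-fold higher than in Dox minus. That is again 6 of 10 members, of which 9 were measured, with 0 lower. Among 9537 measured genes 6.93% were at least 2-fold higher and 5.35% lower. Lgr5, Ascl2, Smoc2, Cdca7 and Hopx passed 2-fold in both pairs, 5 of the 10 members, of which 8 were measured in both. Among all 9023 genes measured in both the share was 2.03%. The count of 5 rests on the brightest probe set of each gene and on the floor of 5. The other Smoc2 probe set gave 0.57 in the GFP pair. With a floor of 6, Lgr5 (0.25) and Ascl2 (0.45) were under 2-fold there. Lgr5 and Ascl2 in the GFP pair, and Msi1 in the Dox pair, were measured only through the array on which they were higher. Without floor or filter, the median difference of the 10 members was 1.41 for GFPlow minus GFPhigh and 1.36 for Dox plus minus Dox minus, against -0.01 and -0.09 over all 18194 genes. In RNA from many cells, more cells of a type and more RNA per cell cannot be told apart.

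**Figure D1:**
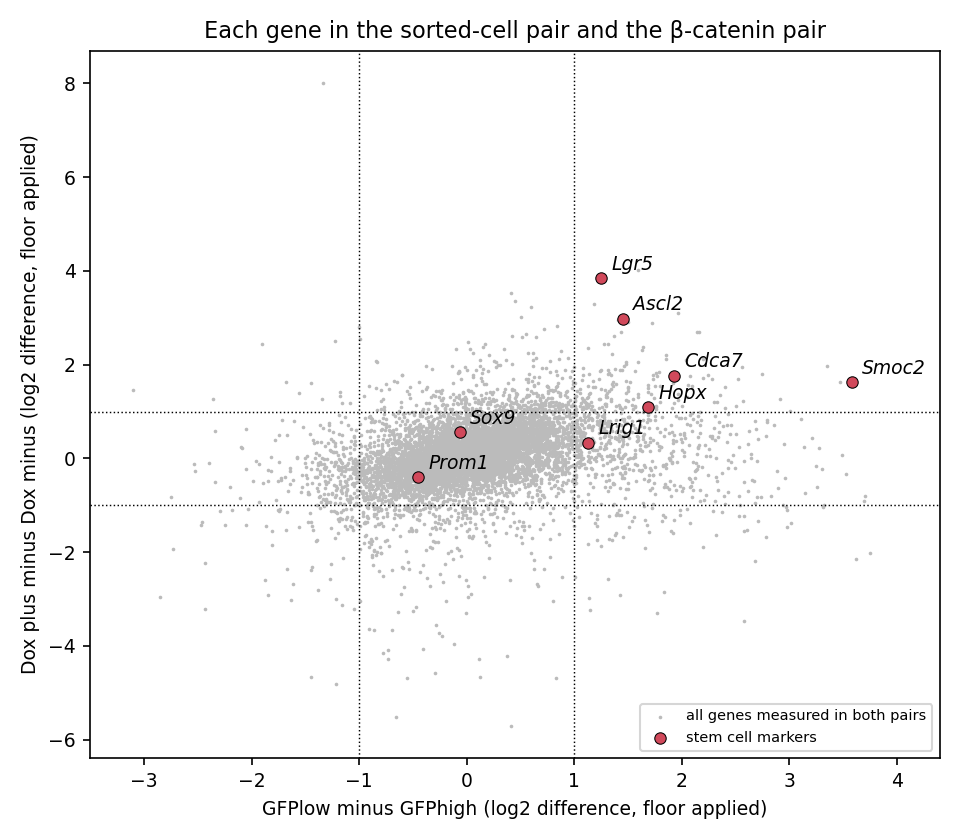
Log2 difference GFPlow minus GFPhigh (horizontal axis) against Dox plus minus Dox minus (vertical axis) for the 9023 genes measured in both pairs, with the floor of 5 applied; the 8 stem cell markers measured in both are the labelled red points, and dotted lines mark 2-fold. Lgr5, Ascl2, Smoc2, Cdca7 and Hopx lie beyond 2-fold on both axes, Lrig1 beyond it on the horizontal axis only, and Prom1 lies below 0 on both.

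Lgr5 encodes the receptor for R-spondins that marks the cycling stem cells of the crypt base. Its informative probe set (1450988_at) read 4.14 in GFPhigh, 6.25 in GFPlow, 6.29 in Dox minus and 10.14 in Dox plus. Lgr5 was thus under the floor in the non-proliferating cells and above it in the dividing cells, and it was above the floor in both crypt samples. The difference was at least 1.25 between the sorted cells (2.11 without the floor) and 3.84 between the crypts, or 14.3-fold. With the floor applied, 3 of 9537 measured genes showed a larger value, but 463 of the 9537 were only lower bounds. Without the floor further genes exceeded Lgr5, among them Scn2b (3.48 in Dox minus and 8.05 in Dox plus). With a floor of 6 the GFP bound was 0.25, under 2-fold. The other probe set (1444519_at) lay between 2.95 and 3.11 on all 4 arrays and carried no difference above 0.09 in size.

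Ascl2 encodes a basic helix-loop-helix transcription factor that maintains the stem cell state and is itself a Wnt target. Its 3 probe sets were all higher in GFPlow and in Dox plus. The brightest (1432018_at) read 4.01 in GFPhigh, 6.45 in GFPlow, 7.57 in Dox minus and 10.55 in Dox plus. The second (1460514_s_at) read 4.65, 6.89, 5.03 and 10.41 on the same arrays, and the third (1422396_s_at) 1.85, 4.78, 4.92 and 10.002. In the GFP pair the first gave at least 1.45 (2.44 without the floor) and the second at least 1.89, while the third stayed under the floor on both arrays. With a floor of 6 the bound of the first was 0.45. After β-catenin induction they gave differences of 2.98 (7.89-fold), 5.38 (41.6-fold) and at least 5.00 (32.0-fold). All were thus well past 2-fold in the Dox pair, but the gap of 2.40 between the first pair of probe sets was wider than in 99.8% of the 3733 genes with such a pair, where the median gap was 0.31. The second probe set stood just above the floor in Dox minus (5.03). Its difference and the gap were not altered by the floor but rest on a value near it. The gap compares probe sets on the same RNA and says nothing of the spread between mice.

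Smoc2 encodes a secreted, calcium-binding matrix protein of the SPARC family that belongs to the expression signature of Lgr5 cells. Its brighter probe set (1415935_at) read 5.06 in GFPhigh, 8.64 in GFPlow, 7.25 in Dox minus and 8.88 in Dox plus. Its other probe set (1431362_a_at) read 6.05, 6.61, 6.49 and 8.47. The 2 probe sets gave similar differences in the Dox pair and very different ones in the GFP pair. With the first, GFPlow minus GFPhigh was 3.58 (11.98-fold). With the floor applied, 4 of 9381 measured genes were higher, although 464 of the 9381 were only lower bounds. The second probe set gave 0.57 (1.48-fold). That gap of 3.02 was wider than in 99.97% of 3712 genes with a pair of probe sets, whose median gap was 0.28. Between the crypts the differences were 1.63 (3.10-fold) and 1.97 (3.92-fold), a gap of 0.34. The mean of both in the GFP pair was 2.07, and a floor of 6 lowered the first to 2.64.

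Cdca7 encodes a nuclear protein needed for DNA methylation through the chromatin remodeller HELLS, is induced by Myc in cultured cells, and is part of the stem cell signature. Its measured probe set (1428069_at) read 7.70 in GFPhigh, 9.63 in GFPlow, 9.77 in Dox minus and 11.54 in Dox plus. Cdca7 was well above the floor on every array, so its values are no bounds. It was 1.92 higher in GFPlow (3.79-fold) and 1.77 higher in Dox plus (3.402-fold), the most even pair of differences among the members past 2-fold in both. The second probe set (1445681_at) lay between 2.63 and 2.81.

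Hopx, a small homeodomain protein that does not bind DNA, was described as a marker of reserve stem cells. Its brighter probe set (1428662_a_at) read 9.25 in GFPhigh, 10.94 in GFPlow, 9.75 in Dox minus and 10.84 in Dox plus. The other (1451776_s_at) read 8.56, 10.95, 9.27 and 11.22. Both were higher in the dividing cells, by 1.69 (3.22-fold) and 2.40 (5.26-fold), and higher in Dox plus, by 1.09 (2.13-fold) and 1.95 (3.87-fold). Hopx was thus lower in the label-retaining cells with either probe set.

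Lrig1, a transmembrane inhibitor of EGF receptor signalling, was likewise proposed to mark a quiet stem cell population. One probe set (1449893_a_at) read 9.88 in GFPhigh, 11.01 in GFPlow, 10.63 in Dox minus and 10.97 in Dox plus. A second (1434210_s_at) read 10.26, 11.19, 10.02 and 10.87. Lrig1 stood near 2-fold in the GFP pair, at 1.13 (2.18-fold) and 0.93 (1.90-fold). Between the crypts both probe sets were under 2-fold, at 0.33 and 0.85. The third (1419928_at) lay under the floor, at 2.58 to 2.85.

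Sox9 encodes an HMG-box transcription factor of the crypt base that is also present in enteroendocrine and tuft cells. One probe set (1424950_at) read 9.72 in GFPhigh, 9.65 in GFPlow, 9.69 in Dox minus and 10.26 in Dox plus. Another (1451538_at) read 9.28, 9.86, 8.24 and 9.82. In the GFP pair they lay on either side of 0, at -0.07 and 0.58, and neither reached 2-fold. In the Dox pair both were higher in Dox plus, but by 0.56 (1.48-fold) with the first and 1.59 (3.003-fold) with the second, a gap wider than in 93.6% of genes. Their mean of 1.07 would bring the members past 2-fold in that pair to 7. The third probe set (1433889_at) stayed between 3.85 and 4.23.

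Msi1 encodes the RNA-binding protein Musashi-1, a repressor of translation found in neural and intestinal progenitors. Its probe set 1452287_at read 2.45 in GFPhigh, 3.06 in GFPlow, 4.45 in Dox minus and 6.21 in Dox plus. It reached the floor only in Dox plus, where it was at least 1.21 higher (2.31-fold), or 1.75 without the floor and 0.21 with a floor of 6. Its other probe sets (1444306_at and 1421409_at) lay between 1.03 and 2.39 on all arrays. No Msi1 value was measured in the sorted cells.

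Prom1, the membrane glycoprotein CD133, labels stem cells in the mouse small intestine and is also found in other epithelial cells. Its only probe set (1419700_a_at) read 13.32 in GFPhigh, 12.87 in GFPlow, 13.76 in Dox minus and 13.36 in Dox plus. It was the only measured member lower in both pairs, by values of -0.45 and -0.40, neither of them near 2-fold. About 82.3% of measured genes had a higher difference than Prom1 among the sorted cells and 82.2% among the crypts.

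Tnfrsf19, also called Troy, is a receptor of the tumour necrosis factor family and a Wnt target expressed in Lgr5 cells of the mouse small intestine. Its 3 probe sets lay between 2.62 and 3.09 on all 4 arrays, and no difference exceeded 0.17 in size. At this signal a difference was not detectable. Altogether 9 of the 24 member probe sets, including these, were under the floor on all 4 arrays, with values from 1.03 to 4.23 and differences of at most 0.26 in size.

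**Figure D2:**
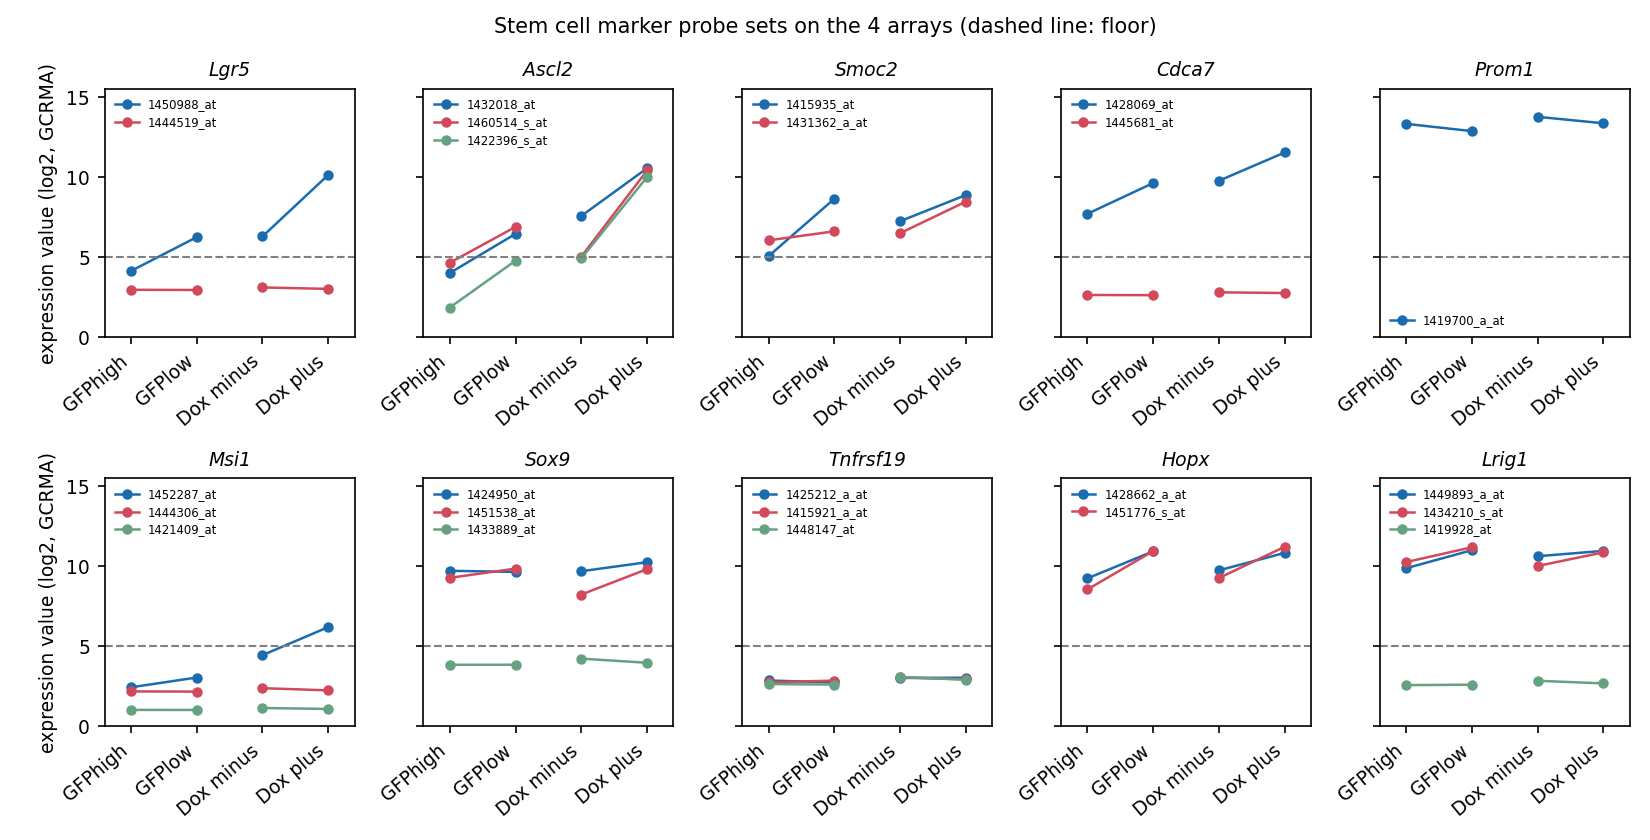
Expression values (log2, vertical axis) of all 24 probe sets of the 10 markers on the 4 arrays (horizontal axis), 1 point per array, joined within each pair only; the dashed line is the floor of 5. Within each pair the informative Lgr5 probe set and the 3 of Ascl2 lie higher in GFPlow and in Dox plus, Prom1 stays at or above 12.87, and the Tnfrsf19 probe sets stay at or below 3.09.

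**Figure D3:**
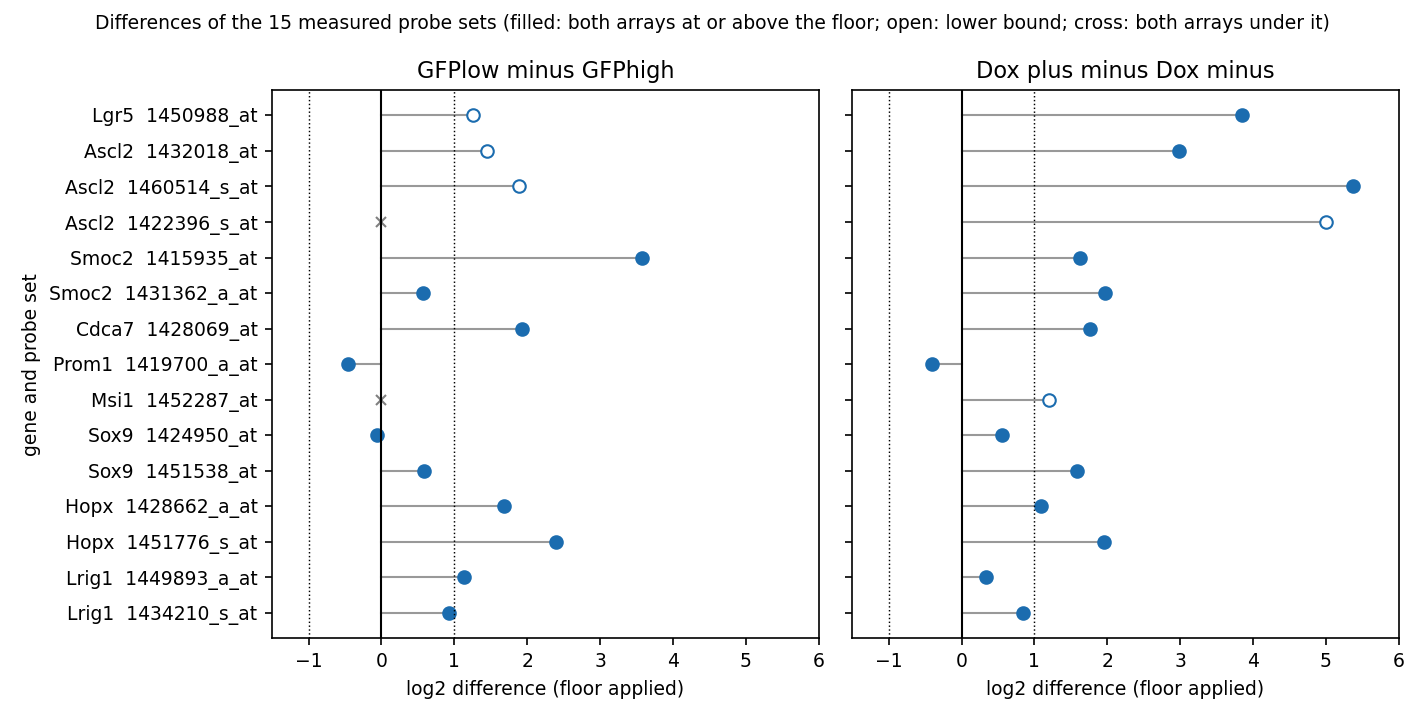
Log2 differences (horizontal axis, floor of 5 applied) of the 15 probe sets that reached the floor on at least 1 array (vertical axis), GFPlow minus GFPhigh on the left and Dox plus minus Dox minus on the right; filled points had both arrays at or above the floor, open points are lower bounds, crosses had both arrays under it, and dotted lines mark 2-fold. The Smoc2 probe sets part on the left (3.58 and 0.57), and those of Ascl2 part on the right (2.98 to 5.38).

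Counted by probe set, 8 of the 24 were at least 2-fold higher in GFPlow, with 13 of the 24 measured in that pair. Among all 18213 probe sets measured there the share was 8.00%. In Dox plus 11 of the 24 were at least 2-fold higher, with 15 measured, against 7.70% of 17627. The members did not keep 1 order in both pairs. Lgr5 and Ascl2 had the largest differences in the Dox pair. In the GFP pair Smoc2, Cdca7 and Hopx had the larger values, although for Lgr5 and Ascl2 only lower bounds exist, which leaves their rank unknown. Without the floor the GFP values were 2.44 for Ascl2 and 2.11 for Lgr5, both then above Cdca7 (1.92) and the brighter Hopx probe set (1.69). This order rests on the brightest probe set of each gene. The other Hopx probe set gave 2.40, above Lgr5, and the other Smoc2 probe set gave 0.57. The difference between the pairs was not tested.

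The promoters of members past 2-fold in both pairs are shown where RefSeq (GRCm38.p6) gave an entry. One window of Tnfrsf19 is added because it alone holds both of the motifs searched, and it was chosen for that. The other Tnfrsf19 window and those of Prom1 and Lrig1 held neither motif and are not printed. Entries were matched by symbol for 6 members (Ascl2, Cdca7, Prom1, Tnfrsf19, Hopx and Lrig1), in 9 windows from 250 bases before to 50 bases after a start site. All are on the strand of the gene. Capitals mark CTTTGAT, the letters TCF and LEF factors prefer, or CAGCTG, an E-box that helix-loop-helix factors such as ASCL2 can bind. Both strands were searched, so CTTTGAT may appear as ATCAAAG, and these letters do not overlap with CAGCTG in any window shown.
Ascl2, chr7:142969215-142969514, minus strand: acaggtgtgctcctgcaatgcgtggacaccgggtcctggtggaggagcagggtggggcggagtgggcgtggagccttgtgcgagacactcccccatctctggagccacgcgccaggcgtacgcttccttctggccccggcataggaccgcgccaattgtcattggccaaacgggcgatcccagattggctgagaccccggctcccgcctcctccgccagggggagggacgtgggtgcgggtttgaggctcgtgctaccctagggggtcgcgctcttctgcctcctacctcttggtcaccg
Cdca7, chr2:72475969-72476268, plus strand: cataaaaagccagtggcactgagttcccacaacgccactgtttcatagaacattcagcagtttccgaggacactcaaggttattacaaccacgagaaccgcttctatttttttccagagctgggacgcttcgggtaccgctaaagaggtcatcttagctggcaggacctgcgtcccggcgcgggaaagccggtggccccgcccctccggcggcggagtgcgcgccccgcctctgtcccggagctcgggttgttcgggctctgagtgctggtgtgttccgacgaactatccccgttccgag
Hopx, chr5:77115074-77115373, minus strand: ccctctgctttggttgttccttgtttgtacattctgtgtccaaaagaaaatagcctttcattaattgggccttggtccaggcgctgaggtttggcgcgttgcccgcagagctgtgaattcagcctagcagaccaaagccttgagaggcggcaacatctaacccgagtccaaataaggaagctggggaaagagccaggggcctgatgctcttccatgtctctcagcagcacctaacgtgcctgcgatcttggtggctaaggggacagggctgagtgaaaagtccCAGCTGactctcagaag
Hopx, other start site, chr5:77095218-77095517, minus strand: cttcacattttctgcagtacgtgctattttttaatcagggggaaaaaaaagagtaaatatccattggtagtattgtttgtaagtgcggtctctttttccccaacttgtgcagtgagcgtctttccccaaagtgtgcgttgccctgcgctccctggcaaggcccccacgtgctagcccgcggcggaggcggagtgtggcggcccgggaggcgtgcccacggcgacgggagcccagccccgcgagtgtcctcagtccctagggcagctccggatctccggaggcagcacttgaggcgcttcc
Tnfrsf19, other start site, chr14:61037938-61038237, minus strand: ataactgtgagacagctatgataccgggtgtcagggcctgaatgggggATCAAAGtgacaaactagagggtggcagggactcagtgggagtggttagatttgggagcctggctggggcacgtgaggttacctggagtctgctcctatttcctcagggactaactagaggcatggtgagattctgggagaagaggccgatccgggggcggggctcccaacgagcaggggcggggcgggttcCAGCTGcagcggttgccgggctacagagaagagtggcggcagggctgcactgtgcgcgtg

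CTTTGAT was found in 1 of the 9 member windows, that of Tnfrsf19, whose probe sets were under the floor on all arrays, with its match beginning at position -202 from the start site. Among all 32851 promoter windows of the same length 3.73% held it. CAGCTG was found in 2 windows, beginning at position -10 from the start site of Tnfrsf19 and at base 34 after that of Hopx, against 16.3% of all windows. No match was found in the windows of Ascl2 and Cdca7, which says only that these letters are not in them. The share of G and C was 67.0% in the Ascl2 window, 59.3% in that of Cdca7 and 53.0% and 59.0% in those of Hopx, against a median of 52.7% over all windows.

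Further genes of the Lgr5 cell signature, none of them a member, differed in both directions. Of 26 found on the arrays 18 were measured in the GFP pair. Of these, 5 were past 2-fold in favour of GFPlow and 0 in the other direction, against 8.81% and 4.30% of all measured genes. The median was 0.46 against 0.04 over all measured genes. The largest differences were those of Cdo1, a cysteine dioxygenase (10.51 in GFPlow and 8.26 in GFPhigh), Rnf32 (8.56 and 7.08) and Clca3b (11.57 and 10.12). In the Dox pair 22 were measured, of which Dox plus exceeded Dox minus at least 2-fold in 8 and the reverse held for 1. Over all measured genes the shares were 6.93% and 5.35%. The median was 0.41 against 0.06. Igfbp4, a binding protein of insulin-like growth factors, read 4.51 in untreated crypts and 9.82 in Dox plus, a bound of at least 4.82, and its 4 measured probe sets ranged from 0.35 to that value. Scn2b, a sodium channel subunit, read 3.48 and 8.05, and Phlda1 10.05 and 12.37. Rnf32 and Cdk6 were past 2-fold in both pairs, and were named after their values were seen. For Cdk6 this rests on the brighter probe set (1.27 and 1.03), since the other measured one lay under 2-fold in both pairs (0.93 and 0.88). The counts above also rest on the brightest probe set of each gene. Another measured probe set was past 2-fold lower in GFPlow for Esrrg (-1.13), Sectm1b (-1.11) and Pdgfa (-1.01). In the other direction, 1 of Zbtb38 was higher in GFPlow (1.28) and 1 of Rgmb in Dox plus (1.82).

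Other reserve or injury-associated stem cell genes showed no common direction. Of 9 listed, 6 were measured in each pair. Of these, 1 was at least 2-fold higher in each pair, against 8.81% and 6.93% of all measured genes. In the Dox pair 1 was at least 2-fold lower, against 5.35%. The higher one was Sox4, a transcription factor of progenitors, which read 9.75 in GFPhigh, 11.21 in GFPlow, 10.85 in Dox minus and 12.81 in Dox plus. Its probe sets differed by 1.28 to 2.70 between the sorted cells and by 0.44 to 1.97 between the crypts. The lower one was Clu, a secreted chaperone that marks the revival stem cells of injured mouse intestine, at 6.28, 5.44, 7.77 and 5.71 on the same arrays. This probe set gave -0.85 between the sorted cells and -2.06 between the crypts, and the other measured one gave -1.92 and -1.20. Krt19 (-0.25) had the third largest size in the GFP pair and Dclk1 (0.15) in the Dox pair.

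The receptors that act with Lgr5 also differed from gene to gene. Of 8 listed 6 were measured. The frizzled receptor Fzd7 (1.41) and the ubiquitin ligase Znrf3 (1.07) were past 2-fold in GFPlow, with Fzd5 at -0.72. In the Dox pair the ubiquitin ligase Rnf43 (2.10) alone was past 2-fold, with Fzd5 at -0.78 and Znrf3 at 0.70. The medians were 0.06 and 0.09.

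Wnt targets passed 2-fold more often in the GFP pair than in the Dox pair, a difference that was not tested. Of 11 Wnt targets found on the arrays 9 were measured, all 9 above 0 and 7 at least 2-fold higher in GFPlow (median 1.32). Cd44 (1.88), Myc (1.46) and Tiam1 (1.45) led them. Another measured probe set of Ccnd1 reached 1.52 in the GFP pair, against 0.55 for the counted one. The Dox pair had 4 past 2-fold in favour of Dox plus and 1 in the other direction (median 0.81), with Myc (2.88), Axin2 (2.43) and Ephb3 (1.65) showing the largest sizes. Bambi was the lower one (-1.20), and Ets2 (0.81), Slc12a2 (0.59), Cd44 (0.54) and Tiam1 (0.32) stayed under 2-fold. Other measured probe sets of Slc12a2 and Cd44 reached 1.54 and 1.24. Proliferation genes were higher alongside the stem cell markers in the GFP pair, and by their counts not in the Dox pair. Of 14 measured 13 were past 2-fold in GFPlow and 0 the other way (median 2.24), with Cdk1 (3.52), Plk1 (3.31) and Mcm3 (at least 3.11) furthest from 0. For Top2a this rests on the brighter probe set (2.13), since the other measured one gave 0.05. In Dox plus 0 of 14 were 2-fold higher and 2 were lower (median -0.30), with Aurkb (-1.24), Plk1 (-1.04) and Ccna2 (-0.98) furthest from 0. In the other direction 6 of the 14 lay above 0, namely Mcm2 (0.91), Mcm3 (0.84), Mcm6 (0.82), Pcna (0.63), Mcm5 (0.56) and Rrm2 (0.31), genes of DNA replication. Other measured probe sets of Mcm3, Mcm5 and Rrm2 were past 2-fold higher in Dox plus, at up to 1.86, 1.32 and 1.05. The part of the proliferation genes in the stem cell marker differences was not tested. Genes of differentiated cells also differed beside the markers. Absorptive colonocyte genes had a median of -0.82 in GFPlow, with 3 of 12 at least 2-fold lower, and -0.19 in Dox plus, with 0 of 12. Other measured probe sets in the GFP pair reached -1.89 for Slc26a3 and -1.09 for Car4. Another of Slc9a3, a counted gene, gave -0.33. Goblet cell genes had a median of 0.84 in GFPlow, with 4 of 10 at least 2-fold higher, and -0.36 in Dox plus, with 2 of 10 at least 2-fold lower. Another measured probe set of Agr2 gave -1.25 in Dox plus. Enteroendocrine genes had a median of -0.96 in GFPlow, with 4 of 8 at least 2-fold lower. In Dox plus their median was -2.25, with 9 of 10 at least 2-fold lower and Sct, the secretin gene, higher (1.34). The part of these cell types in the marker differences was not tested.

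**Figure D4:**
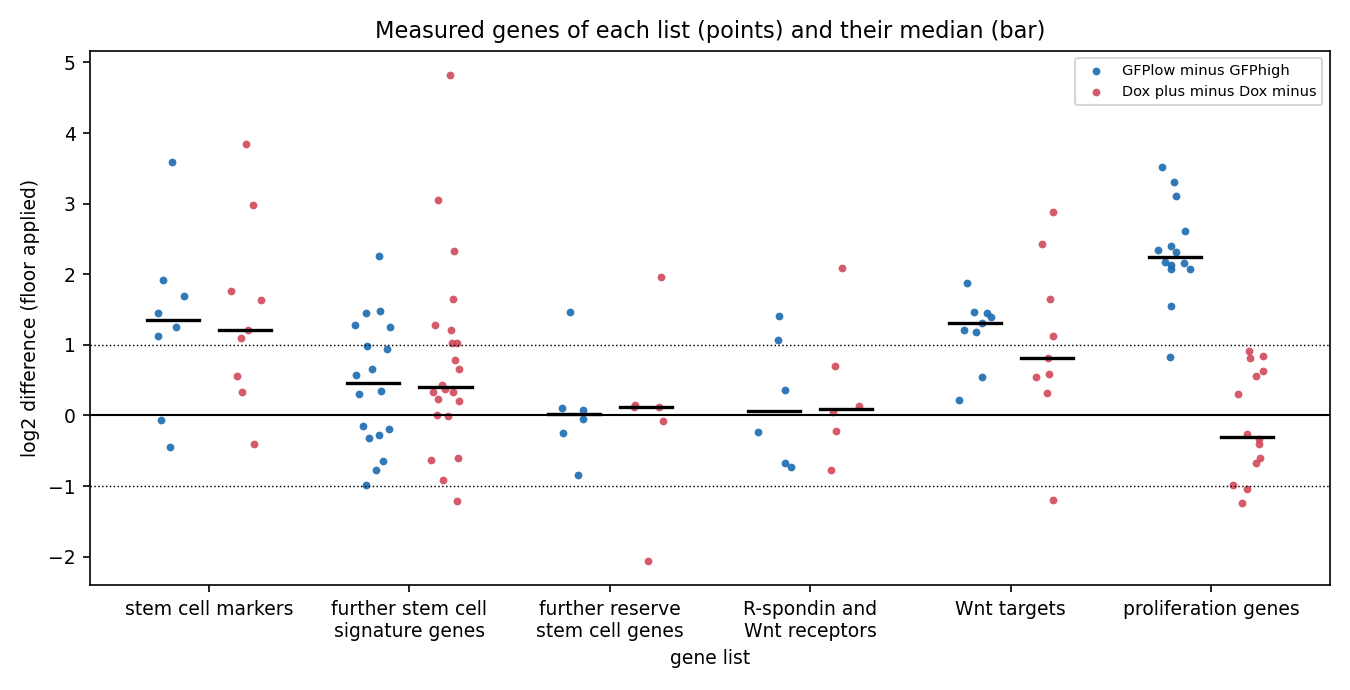
Log2 differences (vertical axis, floor of 5 applied) of the measured genes of each list (horizontal axis), GFPlow minus GFPhigh in blue and Dox plus minus Dox minus in red; each point is 1 gene, bars are medians and dotted lines mark 2-fold. Proliferation genes lie high in blue (median 2.24) and around 0 in red (median -0.30), and Wnt targets lie mostly above 0 in both.

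The genes nearest to Lgr5 and Ascl2 were sought by the distance between genes over the 2 differences, among 9023 genes measured in both pairs. With only 2 numbers per gene this is a description. The GFP differences of Lgr5 and Ascl2 are lower bounds set by the floor (2.11 and 2.44 without it). The distances, and the order in which the genes are listed, are thus set partly by the floor. With the floor of 5, the 5 genes within 0.89 of Lgr5 were the creatine kinase Ckb, Adat2, Ascl2, Timm9 and Pla2g12a, of which only Timm9 was at or above the floor on all 4 arrays. The 5 within 0.29 of Ascl2 were Myl7, Snhg12, Myc, Atp23 and Snhg5. Ckb, like Lgr5, was under the floor in GFPhigh, with bounds of at least 1.59 there and at least 4.03 after induction. Myc, by contrast, was measured on both arrays of each pair.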

How the data were processed

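Total RNA of 4 samples was extracted with Trizol and hybridised as biotin-labelled cRNA, 1 array per group, per the labels' protocols. Values deposited by the authors are log2 expression values of 45101 probe sets on each array, and the submitters' processing notes name GCRMA. The log2 scale was read from the values (0.47 to 16.27). GCRMA models background from probe sequence, so low values carry little information on abundance. The version of GCRMA, and the set of arrays it was run on, were not given in the sources used here. Between 16945 and 17462 probe sets reached the floor of 5 on an array.

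Gene symbols came from the platform's annotation, in which 34958 probe sets had 1 symbol, 932 several and 9211 none. Only the first were used. The probe set of highest mean over all 4 arrays stood for its gene. All 10 members were found in the RefSeq gene table under the same symbol. Differences, the floor and the 2-fold threshold were computed in Python 3.11.15 with pandas 2.3.3, and the loess correction (span 0.4) with statsmodels 0.14.6. The steps were tested on simulated data with known differences. The changed genes there lay well above the floor, so the lower bounds were not checked. Named by rule are all members with each of their probe sets, the 3 genes of each listed pathway with the largest absolute differences, and the 5 genes nearest to Lgr5 and Ascl2. Any other list gene was named after its values were seen. The members and lists were chosen with earlier results of these data known. Alternatives were floors of 4 and 6, no floor, quantile normalization, loess, the mean of measured probe sets, and dropping the probe sets whose IDs end in _a_at, _s_at or _x_at, which can match several transcripts.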

Additional observations from a re-analysis of the deposited data

How the results depend on the processing

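The count of members at least 2-fold apart stayed within 1.5 times its value under all 7 alternatives, and each counted member was higher in GFPlow or Dox plus. It was 6 in the GFP pair, or 4 with a floor of 6 and 4 of 5 measured members once probe sets with IDs in _a_at, _s_at or _x_at were dropped. Over all measured genes the share at least 2-fold higher under these 2 alternatives was 7.92% and 8.74%. The count was 6 in the Dox pair, or 5 with a floor of 6, 7 with the mean of probe sets and 5 of 6 measured members without those endings. The shares over all measured genes there were 6.18%, 7.09% and 7.48%. Of 113 single values under the alternatives 0 reversed a difference past 2-fold and 10 moved by over 1.5-fold. Part of this outcome was fixed in advance. Changing the floor cannot reverse a sign, and dropping probe sets left the value of each remaining member unchanged. A floor of 4 or none gave 2.11 for Lgr5 and 2.44 for Ascl2 in the GFP pair, and a floor of 6 gave 0.25 and 0.45, with 2.64 for Smoc2 there and 0.21 for Msi1 in the Dox pair. The mean of probe sets gave 2.07 for Smoc2 in the GFP pair and 4.45 for Ascl2 in the Dox pair. Quantile normalization and loess moved no member's value that far. Without the named endings Hopx, Prom1 and Lrig1 have no measured probe set. No paired analysis was possible because each group holds 1 array. The signal of Lgr5 and Ascl2 in the GFP pair, and of Msi1 in the Dox pair, was under the floor on 1 array, so those values are bounds.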

Other observations

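Markers of deep crypt secretory cells, which lie between the Lgr5 cells at the base of the mouse colonic crypt and supply them with Notch and growth factor ligands, were higher in the dividing cells and divided in the Dox pair. Of 6 listed, 5 were measured in the GFP pair and 4 were at least 2-fold higher in GFPlow, against 8.81% of all measured genes. Kit, a receptor tyrosine kinase used to isolate these cells, read 7.92 in GFPhigh and 10.81 in GFPlow, although its other measured probe set gave a smaller difference (1.43 against 2.90). Reg4, a lectin and their defining marker, read 13.27 and 15.21. In the Dox pair both stayed under 2-fold, with Kit at 10.45 without and 9.82 with doxycycline, and Reg4 at 14.48 and 14.85. The antimicrobial gene Ang4 (12.99 and 9.69) and the lectin gene Itln1 (13.63 and 10.94) were lower in Dox plus, while the metalloproteinase Mmp7 (5.85 and 7.77), named after its value was seen, was higher. Pla2g2a, a secreted phospholipase, stood at 12.22 in GFPhigh and 14.42 in GFPlow. In the Dox pair it was under the floor in Dox minus (3.10) and at 7.11 in Dox plus.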
